A study of Mus musculus with 12 samples.

Results

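The 10 genes described here mark T cells and cytotoxic lymphocytes in whole skin: Cd3d, Cd3e and Cd3g, the co-receptor genes Cd4, Cd8a and Cd8b1, the cytotoxic granule genes Gzma, Gzmb and Nkg7, and the cytokine gene Ifng. They were selected on their FPKM values in these same 12 libraries, where the CD8 genes stood high late, and were found by symbol, 10 of the 23359 genes in the table. RNA of whole skin came from C3H/HeJ mice and was sequenced as 12 libraries, 3 for each of 4 groups. Treated skin was fibrotic skin that had been given CD36highCD90+ fibroblasts and was taken at 20 weeks, fibrotic skin without such cells was taken at 20 weeks (late) and at 6 weeks (early), and normal skin had no stated time. How the fibrosis was made, the ages of the mice, and whether each library is an animal of its own are not stated in the labels, so the tests measure only the spread between these libraries.

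The CD3 chains are the signalling part of the T cell receptor and are carried by alpha-beta and gamma-delta T cells alike. CD8 is a dimer of an alpha and a beta chain, or of alpha chains alone, and is the co-receptor of T cells that read MHC class I, while CD4 is the co-receptor of T cells that read MHC class II and in the mouse is also found on some dendritic cells. Cytotoxic lymphocytes, which include CD8 T cells and natural killer cells, kill through granules that hold perforin and granzymes, and release interferon gamma. Mouse epidermis holds a resident layer of dendritic epidermal T cells, which carry a gamma-delta receptor and mostly neither co-receptor.

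The CD3 genes sit side by side on chromosome 9 in mm10, with Cd3g at chr9:44969572-44980431 and Cd3d at chr9:44981769-44987052, 1337 bases apart and on opposite strands. Cd3e lies at chr9:44998735-45009663. The CD8 chain genes are also neighbours, Cd8b1 at chr6:71322788-71337492 and Cd8a at chr6:71373427-71379171, with 35934 bases between them, whereas Cd4 lies elsewhere on that chromosome at chr6:124864693-124888247. The remaining genes stand alone: Gzma at chr13:113093824-113100981, where it overlaps Cdc20b, Gzmb at chr14:56258836-56262334, Nkg7 at chr7:43437138-43438246 and Ifng at chr10:118441046-118445894. Without a stated strand setting of the counting, reads in the overlap of Gzma and Cdc20b cannot be assigned.

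Promoter sequences of RefSeq on GRCm38.p6, the patched form of mm10, were matched for 8 of the 10 genes by symbol. Each runs from 250 bases before to 50 bases after an annotated start of transcription. For Cd3d and Cd3e this start lies inside the gene span given above and not at its end. Cd4 and Cd8b1 were not matched. The sequences below set Cd8a and Gzmb, which were under 1 FPKM in every normal and 6-week library, beside the adjoining Cd3d and Cd3g, which were present in every library. Capitals mark matches on either strand to short motifs chosen for T cell and killer cell factors: TGTGGT for the RUNX factors, AGGAAG for the ETS factors, AGATAA for the GATA factors, TCACACCT for the T-box factors and TGACGTCA for the cyclic AMP response element (CRE). The Cd8a window is at chr6:71373177-71373476 on the plus strand, the Gzmb window at chr14:56262285-56262584 on the minus strand, the Cd3d window at chr9:44981536-44981835 on the plus strand and the Cd3g window at chr9:44980382-44980681 on the minus strand.
Cd8a: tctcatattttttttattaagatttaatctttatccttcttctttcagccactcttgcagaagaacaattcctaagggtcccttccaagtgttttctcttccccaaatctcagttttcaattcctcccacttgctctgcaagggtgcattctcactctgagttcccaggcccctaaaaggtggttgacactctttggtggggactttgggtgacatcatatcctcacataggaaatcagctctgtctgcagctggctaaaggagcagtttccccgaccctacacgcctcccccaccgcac
Gzmb: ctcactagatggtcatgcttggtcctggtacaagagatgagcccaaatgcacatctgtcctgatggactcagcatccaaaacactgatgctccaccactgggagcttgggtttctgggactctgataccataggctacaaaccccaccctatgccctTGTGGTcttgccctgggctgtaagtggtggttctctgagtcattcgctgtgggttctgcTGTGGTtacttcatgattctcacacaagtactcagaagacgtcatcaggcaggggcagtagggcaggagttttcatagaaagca
Cd3d: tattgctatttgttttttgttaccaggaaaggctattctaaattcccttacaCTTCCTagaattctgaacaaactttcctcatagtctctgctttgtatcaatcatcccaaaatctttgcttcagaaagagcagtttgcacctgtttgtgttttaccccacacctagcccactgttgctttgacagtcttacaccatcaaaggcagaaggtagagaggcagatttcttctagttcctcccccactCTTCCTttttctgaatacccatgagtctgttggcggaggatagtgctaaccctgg
Cd3g: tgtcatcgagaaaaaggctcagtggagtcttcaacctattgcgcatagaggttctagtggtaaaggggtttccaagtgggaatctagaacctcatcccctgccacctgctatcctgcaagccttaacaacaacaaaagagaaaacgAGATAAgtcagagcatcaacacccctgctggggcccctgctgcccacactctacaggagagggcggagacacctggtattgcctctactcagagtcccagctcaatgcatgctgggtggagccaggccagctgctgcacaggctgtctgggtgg
The Gzmb window held 2 RUNX matches, Cd3d held 2 ETS matches, Cd3g held 1 GATA match and Cd8a held none of the 5 motifs. Of the windows not printed, Gzma had 1 RUNX match, Cd3e had 2 ETS matches, Nkg7 had 1 match each to RUNX, ETS and T-box, and Ifng had none. Among all 32851 promoters of the same length, 16.8% held the RUNX letters, 35.4% the ETS letters, 11.2% the GATA letters, 1.28% the T-box letters and 1.79% the CRE letters. A match is a description of letters and not a bound site.

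The values are FPKM, fragments scaled to transcript length and library size, so levels of different genes can be set side by side, but the depth of each library is unknown. A gene was tested if 3 or more libraries held it at 1 FPKM or above, which left 13761 genes, and all 10 genes described here were among them. Cd8a, Cd8b1, Gzma, Gzmb and Ifng reached 1 FPKM in 0 of the 6 normal and 6-week libraries, so they passed this filter only through 20-week skin. Treated libraries spread more than the others, with a median gene SD on the log2 scale of 0.239 against 0.148 in fibrotic skin at 20 weeks, 0.142 at 6 weeks and 0.148 in normal skin. Treated replicate 1 was the highest of the 12 libraries for 6 of the 10 genes, and results that rest on it are given with and without it. The highest library was not counted over all tested genes, so this count and those for other lists describe only the genes listed. Transcripts of tissue parts also varied: skeletal muscle genes made up 0.0131% to 1.80% and hair shaft genes 0.000251% to 0.409% of the summed FPKM of a library. A rescaling left out these genes, cornified genes, 790 short RNA rows and 22 genes listed at 0 in some library though abundant in others. The rescaling also moved the median of all genes, and which of the rows did so was not tested. After it, 4 of the 10 were higher and 2 lower in late fibrotic against normal skin at an adjusted p under 0.05 in limma. Of all tested genes 47.1% were called then, and 16.7% of these calls were higher. Without it 3 of the 10 were called, all higher, beside 33.5% of all tested genes. In whole skin, a lower level can come from fewer cells of a type or from less RNA per cell, which cannot be told apart.

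The CD3 genes were highest on average in normal skin and lowest in fibrotic skin at 6 weeks. Cd3g, the most abundant of the 10, had 22.7, 12.3 and 9.71 FPKM in treated skin, 19.9, 14.8 and 17.5 FPKM in fibrotic skin at 20 weeks, 4.6, 9.72 and 4.53 FPKM in fibrotic skin at 6 weeks and 26.0, 22.6 and 40.8 FPKM in normal skin. The 6-week libraries lay below every library of 20-week fibrotic skin and of normal skin, and 20-week fibrotic skin lay below normal skin without overlap. The 6-week replicate 2 reached the level of treated replicate 3, so 6-week and treated skin just overlapped.

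Cd3e had 6.70, 3.84 and 4.23 FPKM in treated skin, 4.73, 5.20 and 5.88 FPKM in fibrotic skin at 20 weeks, 0.939, 4.89 and 1.22 FPKM in fibrotic skin at 6 weeks and 9.58, 6.46 and 10.7 FPKM in normal skin. All 3 libraries of 20-week fibrotic skin lay below all 3 of normal skin. The 6-week group split into replicate 2, at the level of 20-week skin, and the other libraries, well below it.

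Cd3d had 6.2, 1.90 and 1.79 FPKM in treated skin, 4.06, 3.19 and 3.91 FPKM in fibrotic skin at 20 weeks, 1.46, 6.10 and 1.24 FPKM in fibrotic skin at 6 weeks and 3.80, 3.07 and 5.06 FPKM in normal skin. Treated replicate 1 and 6-week replicate 2 were the highest libraries, and each group overlapped every other. Cd3d was thus the CD3 gene with the least separation between groups. Over the 12 libraries, Cd3e and Cd3g followed each other with a Pearson r of 0.946 on the log2 scale, against 0.764 for Cd3d with Cd3e and 0.717 for Cd3d with Cd3g. These are descriptions over libraries that share groups.

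Against normal skin, fibrotic skin at 6 weeks had a log2 fold change, on the log2(FPKM + 1) scale used throughout, of -2.11 ± 0.34 (SE) for Cd3g, -1.73 ± 0.37 (SE) for Cd3e and -0.53 ± 0.46 (SE) for Cd3d. Unless a library was left out, a gene's SE comes from a spread pooled over 12 libraries and is the same in every comparison. The treated libraries, which spread more, thus enter it also where treated skin is not compared. Fibrotic skin at 20 weeks differed from normal skin by -0.71 ± 0.34 for Cd3g, -0.64 ± 0.37 for Cd3e and -0.06 ± 0.46 for Cd3d (SE). Late against early fibrotic skin had values of 1.40 ± 0.34 for Cd3g and 1.09 ± 0.37 for Cd3e (SE). The choice of the genes used these same values, so the fold changes of the 10 genes, and the counts of them past an adjusted or unadjusted threshold, are descriptions and not tests.

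The CD8 chain genes were present in fibrotic skin at 20 weeks and nearly absent in 6-week and normal skin. Cd8a had 12.2, 0.680 and 0.185 FPKM in treated skin, 7.97, 6.67 and 8.90 FPKM in fibrotic skin at 20 weeks, 0.05, 0.410 and 0.431 FPKM in fibrotic skin at 6 weeks and 0.00748, 0.133 and 0.0201 FPKM in normal skin. The 3 libraries of 20-week fibrotic skin were tightly grouped and far above every 6-week or normal library. Treated skin did not form a group: replicate 1 was the highest of all 12 libraries, while replicates 2 and 3 lay at or near the range of 6-week skin.

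Cd8b1 had 8.99, 0.542 and 0.170 FPKM in treated skin, 5.99, 5.47 and 6.85 FPKM in fibrotic skin at 20 weeks, 0.103, 0.401 and 0.183 FPKM in fibrotic skin at 6 weeks and 0.106, 0.0560 and 0.0974 FPKM in normal skin. Its pattern over the 12 libraries was that of Cd8a, with a Pearson r of 0.997. In the 20-week libraries the ratio of Cd8b1 to Cd8a was 0.739, 0.797 and 0.920 in treated skin and 0.752, 0.820 and 0.770 in fibrotic skin, so it stayed in a narrow range while the level of either gene varied widely. At 6 weeks and in normal skin both genes were too low for the ratio to be read.

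Group means of Cd8a were 4.34 ± 6.78 FPKM in treated skin, 7.85 ± 1.12 FPKM in fibrotic skin at 20 weeks, 0.297 ± 0.214 FPKM at 6 weeks and 0.0534 ± 0.0689 FPKM in normal skin (SD, n = 3 each). In this order treated skin overlapped both late and early fibrotic skin, and early fibrotic skin overlapped normal skin, whereas late fibrotic skin lay above early fibrotic and normal skin without overlap. The log2 fold change of fibrotic skin at 20 weeks over normal skin was 3.06 ± 0.69 for Cd8a and 2.71 ± 0.62 for Cd8b1 (SE), and over 6-week skin it was 2.78 for Cd8a and 2.53 for Cd8b1. At 6 weeks the fold change over normal skin was 0.29 for Cd8a and 0.17 for Cd8b1.

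Cd4 followed another course, highest at 6 weeks and lowest in normal skin. It had 0.709, 2.17 and 1.99 FPKM in treated skin, 1.81, 1.56 and 1.48 FPKM in fibrotic skin at 20 weeks, 4.12, 6.40 and 2.5 FPKM in fibrotic skin at 6 weeks and 0.539, 0.676 and 0.497 FPKM in normal skin. The 6-week libraries lay above all others, the normal libraries below all others, and treated and 20-week fibrotic skin overlapped. Treated replicate 1, the highest library for Cd8a and Cd8b1, was the lowest of the 20-week libraries for Cd4. Against normal skin the log2 fold change was 0.74 ± 0.28 for fibrotic skin at 20 weeks and 1.7 ± 0.28 for 6-week skin (SE).

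Markers of macrophages were also higher at 6 weeks than in normal skin, but did not follow Cd4 over all libraries. The summed level of the macrophage list ran from 325 to 847 FPKM in fibrotic skin at 6 weeks and from 112 to 231 FPKM in normal skin. Of its 8 tested genes, 7 were called higher at 6 weeks in limma at an adjusted p under 0.05, beside 17.6% of all tested genes. In fibrotic skin at 20 weeks the sum was 364 to 401 FPKM, above 6-week replicate 3 (325 FPKM), where Cd4 was higher. The highest sum was in 6-week replicate 1 and the highest Cd4 in 6-week replicate 2. In treated skin the sum was 238 to 283 FPKM, highest in replicate 1, the treated library lowest for Cd4. Of the dendritic cell list, 2 of 5 tested genes were called higher in the same comparison, Itgax with means of 14.6 FPKM at 6 weeks and 4.67 FPKM in normal skin (adjusted p = 0.00812, limma) and Flt3 with means of 1.53 FPKM at 6 weeks and 0.626 FPKM in normal skin (adjusted p = 0.0339, limma, and up to 0.098 with a library left out). The other 3 tested genes were not called and had lower means at 6 weeks, with 21.0 against 30.3 FPKM in normal skin for Cd207, 1.04 against 1.24 FPKM for Zbtb46 and 5.24 against 6.79 FPKM for Cd209a, and the median log2 fold change of the list was -0.13. The part of these cells in the Cd4 values was not tested.

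**Figure D1:**
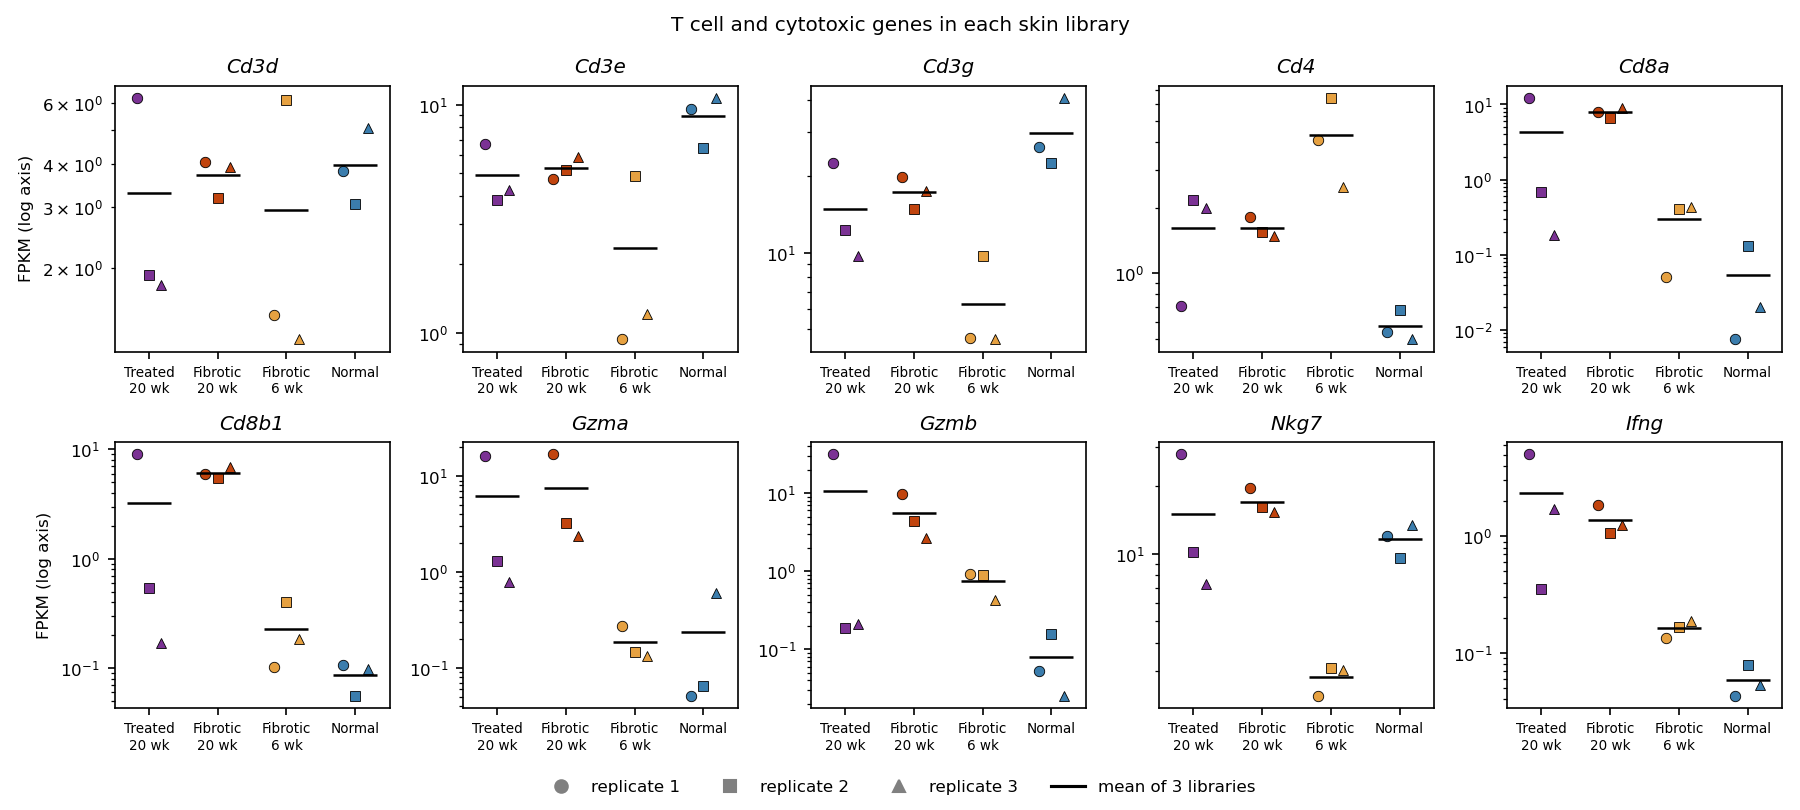
FPKM of the 10 genes in each of the 12 libraries on log axes, with treated, 20-week fibrotic, 6-week fibrotic and normal skin from left to right; symbols give the replicate number and bars the mean of 3 libraries. Cd8a and Cd8b1 stand at 5.47 to 8.90 FPKM in the 3 fibrotic libraries of 20 weeks and under 0.5 FPKM in every 6-week and normal library, while treated replicate 1 lies far above the other treated libraries.

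The granule protease genes Gzma and Gzmb were also higher in late fibrotic skin than in 6-week or normal skin. Gzmb, a protease that activates caspases in target cells, had 31.3, 0.190 and 0.212 FPKM in treated skin, 9.73, 4.41 and 2.64 FPKM in fibrotic skin at 20 weeks, 0.909, 0.901 and 0.432 FPKM at 6 weeks and 0.0521, 0.158 and 0.0254 FPKM in normal skin. Leaving treated skin aside, late fibrotic, early fibrotic and normal libraries formed a descending order with no overlap. Treated replicate 1 was the highest library of all, and treated replicates 2 and 3 lay below every 6-week library.

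Gzma, a tryptase-like granzyme, had 16.4, 1.29 and 0.785 FPKM in treated skin, 16.9, 3.26 and 2.35 FPKM in fibrotic skin at 20 weeks, 0.276, 0.147 and 0.133 FPKM at 6 weeks and 0.0510, 0.0642 and 0.602 FPKM in normal skin. Within the fibrotic group of 20 weeks, replicate 1 was far above the others, and 6-week and normal skin overlapped. All 6 libraries of 20 weeks lay above all 6 others. The log2 fold change of 20-week fibrotic over normal skin was 2.39 ± 0.82 for Gzma and 2.47 ± 1.04 for Gzmb (SE). The widest errors among the 10 genes belonged to these granzymes, and they are pooled over 12 libraries, treated replicate 1 included.

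Nkg7, a membrane protein of cytotoxic granules, differed from the granzymes because it was abundant in normal skin. It had 27.7, 10.2 and 7.32 FPKM in treated skin, 19.6, 16.2 and 15.4 FPKM in fibrotic skin at 20 weeks, 2.32, 3.09 and 3.02 FPKM in fibrotic skin at 6 weeks and 11.9, 9.52 and 13.4 FPKM in normal skin. The 6-week libraries lay far below all others, and 20-week fibrotic skin lay above normal skin without overlap. The fold change against normal skin was 0.52 ± 0.36 at 20 weeks and -1.72 ± 0.36 at 6 weeks, and that of late over early fibrotic skin was 2.24 ± 0.36 (log2, SE). Nkg7 resembled Cd3g (Pearson r 0.798 over 12 libraries) and was opposed to Cd4 (r of -0.739).

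Ifng, the gene of interferon gamma, had 5.02, 0.355 and 1.71 FPKM in treated skin, 1.83, 1.06 and 1.26 FPKM in fibrotic skin at 20 weeks, 0.133, 0.168 and 0.188 FPKM in fibrotic skin at 6 weeks and 0.0430, 0.0796 and 0.0531 FPKM in normal skin. Every 20-week library, treated or not, lay above every 6-week library, and every 6-week library above every normal library. Unlike Cd8a, Cd8b1 and Gzmb, Ifng in treated replicate 3 lay within the range of late fibrotic skin. Against normal skin its log2 fold change was 1.41 ± 0.41 for treated, 1.16 ± 0.41 for late fibrotic and 0.14 ± 0.41 for early fibrotic skin (SE). This SE is pooled over 12 libraries, treated ones included, and the 6-week and the normal libraries lay much closer together among themselves.

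Ratios to Cd3e and to Ptprc, the gene of the leukocyte surface protein CD45, show how the members shifted against each other within a library. The ratio of Cd8a to Cd3e was 1.81, 0.177 and 0.0436 in treated skin, 1.69, 1.28 and 1.51 in late fibrotic skin, 0.0532, 0.0839 and 0.354 at 6 weeks and 0.000781, 0.0205 and 0.00189 in normal skin. Cd8a thus exceeded Cd3e in the 3 fibrotic libraries of 20 weeks and in treated replicate 1, and in no other library. The ratio of Cd4 to Cd3e was 0.106, 0.566 and 0.470 in treated skin, 0.383, 0.3 and 0.252 in late fibrotic skin, 4.38, 1.31 and 2.05 at 6 weeks and 0.0563, 0.105 and 0.0465 in normal skin. It was above 1 in each 6-week library and in no library of another group.

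The ratio of Cd3e to Ptprc was 0.654, 0.639 and 0.817 in treated skin, 0.671, 0.746 and 0.656 in late fibrotic skin, 0.068, 0.298 and 0.141 at 6 weeks and 1.57, 0.767 and 1.25 in normal skin. Fibrotic skin at 6 weeks had the lowest ratio with no overlap, and treated and 20-week fibrotic skin were alike in range. Ptprc itself had 10.3, 6.00 and 5.18 FPKM in treated skin, 7.04, 6.96 and 8.95 FPKM in fibrotic skin at 20 weeks, 13.8, 16.4 and 8.63 FPKM at 6 weeks and 6.11, 8.42 and 8.54 FPKM in normal skin. It was not called in any of the comparisons in limma, with an adjusted p of 0.757 for treated against fibrotic skin at 20 weeks and 0.0703 for 6-week fibrotic against normal skin. Other leukocyte genes did differ: of 7 tested, Ptprc among them, 5 were called higher at 6 weeks than in normal skin, beside 17.6% of all genes. Against normal skin, 2 were called higher in treated and 1 in 20-week fibrotic skin, beside 7.57% and 15.3% of all genes. In the other comparisons 0 were called.

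**Figure D2:**
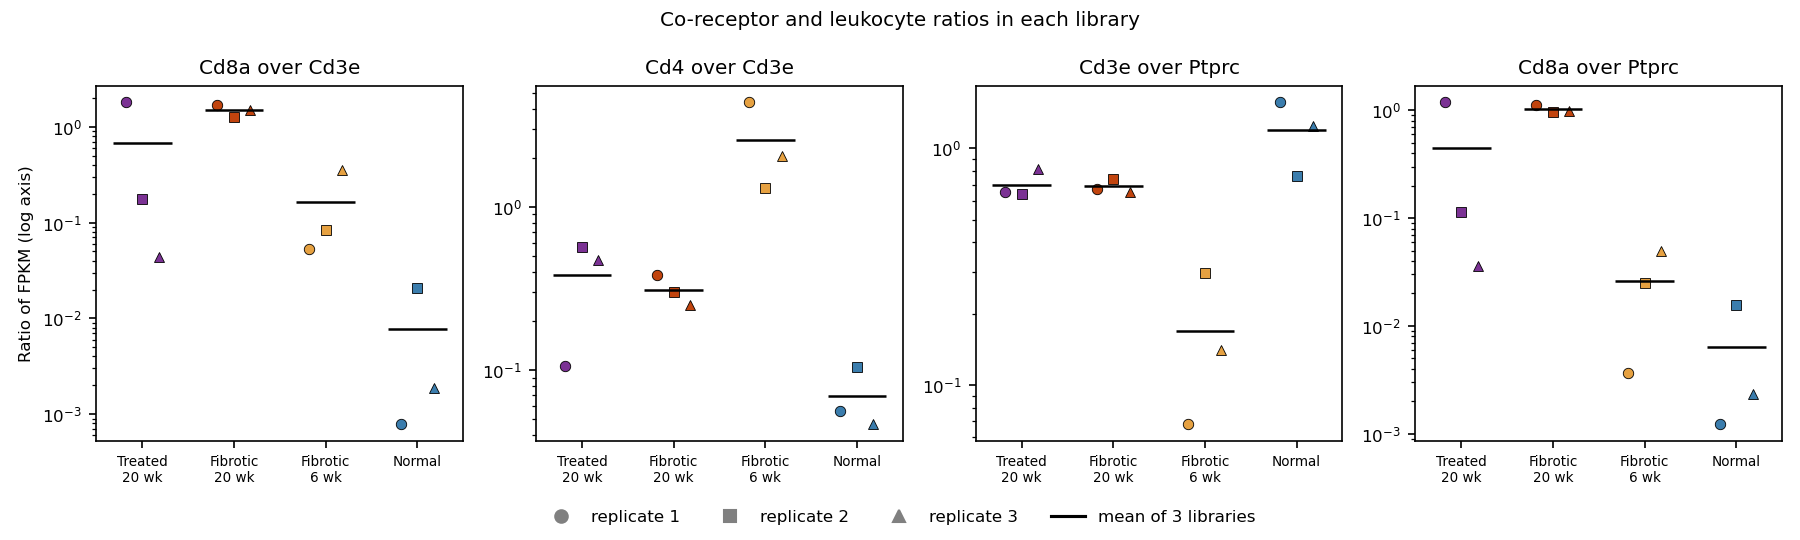
Ratios of FPKM within each library on log axes for Cd8a over Cd3e, Cd4 over Cd3e, Cd3e over Ptprc and Cd8a over Ptprc, with treated, 20-week fibrotic, 6-week fibrotic and normal skin from left to right; symbols give the replicate and bars the mean of 3 libraries. Cd4 over Cd3e is 1.31 to 4.38 in 6-week skin, and Cd8a over Cd3e is 1.28 to 1.69 in fibrotic skin at 20 weeks.

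Across comparisons the 10 genes are read against the share of all 13761 tested genes called in limma at an adjusted p under 0.05. At an unadjusted p under 0.05 these genes gave 4775 in treated against fibrotic skin at 20 weeks and 5113 in treated against normal skin. They gave 2737 in late against early fibrotic skin, 6292 in 20-week fibrotic and 6817 in 6-week fibrotic against normal skin. In fibrotic skin at 20 weeks against normal skin, 3 of the 10, Cd8a, Cd8b1 and Gzma, were called higher and 0 lower, and of all tested genes 33.5% were called, 15.3% higher and 18.2% lower. Without overlap of groups, 7 of the 10 were higher and 2 were lower, beside 25.1% of all genes higher and 29.5% lower (54.6% in either direction). The median log2 fold change of the 10 was 0.95, against -0.04 over all tested genes. With a pseudocount of 0.1 in place of 1, 6 members were called, all higher, beside 33.8% of all tested genes. A fit of these 6 libraries alone called 9, of which 7 were higher and 2 lower, beside 38.7% of all tested genes. The call of Gzma was lost with each of the 6 libraries left out in turn except late fibrotic replicate 3.

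In fibrotic skin at 6 weeks against normal skin, 1 of the 10, Cd4, was called higher and 3, Cd3e, Cd3g and Nkg7, lower, and of all tested genes 39.3% were called, 17.6% higher and 21.7% lower. Without overlap of groups, 3 of the 10 were higher and 3 lower, beside 26.6% of all genes higher and 31.4% lower (58.1% in either direction). The median of the 10 was 0.05, against -0.05 over all tested genes, since members moved in opposite directions.

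In late against early fibrotic skin, 0 of the 10 were called in limma with the spread pooled over 12 libraries, where 5 genes were called (0.0363% of those tested, 0.00727% higher and 0.0291% lower). At an unadjusted p under 0.05 there were 7 higher and 1 lower among the 10, and 2737 among all genes. Groups did not overlap for 7 members that were higher and 1, Cd4, that was lower, beside 17.9% of tested genes that were higher and 13% that were lower (30.9% in either direction). A fit of these 6 libraries alone called 5 of the 10 higher and 478 genes in all, and a fit that weighted the groups by their spread called 6 higher and 1 lower among the 10 and 859 genes in all. The median of the 10 was 1.59, against 0.02 over all tested genes.

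In treated skin against normal skin, 1 of the 10, Ifng, was called higher, and of all tested genes 20.7% were called, 7.57% higher and 13.2% lower. Without overlap of groups, 6 of the 10 were higher and 0 lower, beside 14% of all genes higher and 23.5% lower (37.5% in either direction). The fold changes were 1.77 for Gzma, 1.74 for Gzmb, 1.5 for Cd8a, 1.27 for Cd8b1, 0.69 for Cd4, -0.99 for Cd3g and -0.75 for Cd3e (log2). Without treated replicate 1 the counts were 2 higher and 1 lower, beside 22.6% of all tested genes, 8.58% higher and 14% lower. They were 0 without treated replicate 3 and without each normal library, beside 6.23% to 16% of all tested genes.

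**Figure D3:**
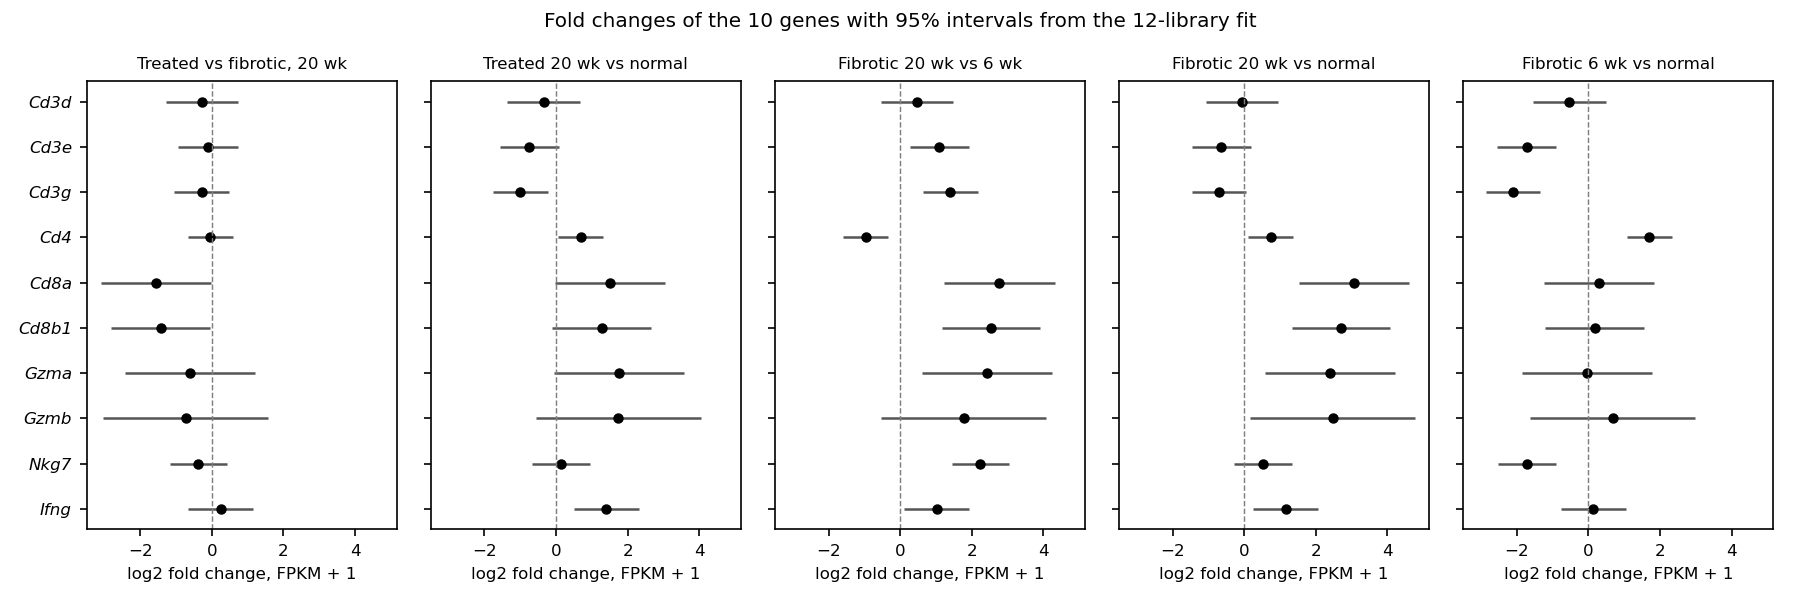
Log2 fold changes of the 10 genes on the log2(FPKM + 1) scale in the 5 comparisons, the first-named group over the second, with 95% intervals from the fit of 12 libraries. Cd8a reaches 3.06 in fibrotic skin at 20 weeks over normal skin and -1.57 in treated over fibrotic skin at 20 weeks.

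In treated against fibrotic skin at 20 weeks, 0 of the 10 were called in limma, beside 15.3% of all tested genes, 4.45% higher and 10.9% lower. The groups overlapped for all 10, while 32.2% of all genes showed no overlap, 13% higher and 19.2% lower. At an unadjusted p under 0.05 there were 0 higher and 2 lower, Cd8a at -1.57 (95% interval -3.11 to -0.03) and Cd8b1 at -1.43 (log2). Of all 13761 tested genes, 4775 were under that unadjusted threshold in either direction. The granzymes stood at -0.73 for Gzmb and -0.62 for Gzma. In each of these genes treated replicate 1 lay apart from replicates 2 and 3.

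Without treated replicate 1, with replicates 2 and 3 against 3 fibrotic libraries, 5 of the 10 were called lower and 0 higher, beside 38.1% of all tested genes, 17.8% higher and 20.3% lower. The log2 fold changes were then -2.64 ± 0.20 for Cd8a, -2.40 ± 0.16 for Cd8b1, -2.31 ± 0.36 for Gzmb, -1.65 ± 0.58 for Gzma and -0.90 ± 0.18 for Nkg7 (SE). The CD3 genes, Cd4 and Ifng were not called with or without this library. Treated replicate 1 was singled out for its high values in such genes. Calls and adjusted p without it, here and below, are thus descriptions and not tests. The labels give no ground to leave the library out, and the files hold no separate check of its label, so every treated value rests on the label as given. No call on these genes between treated and fibrotic skin was made with all 3 libraries. The calls on other genes named below for this comparison, 8 in all, were each lost in the fit of these 6 libraries (adjusted p of 0.128 to 0.139, limma), without fibrotic replicate 1 (0.052 to 0.146) and without fibrotic replicate 3 (0.073 to 0.106). Of the 14 calls on listed genes followed in treated against normal skin, Ifng among them, 13 were lost in the fit of 6 libraries and 12 without normal replicate 3.

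**Figure D4:**
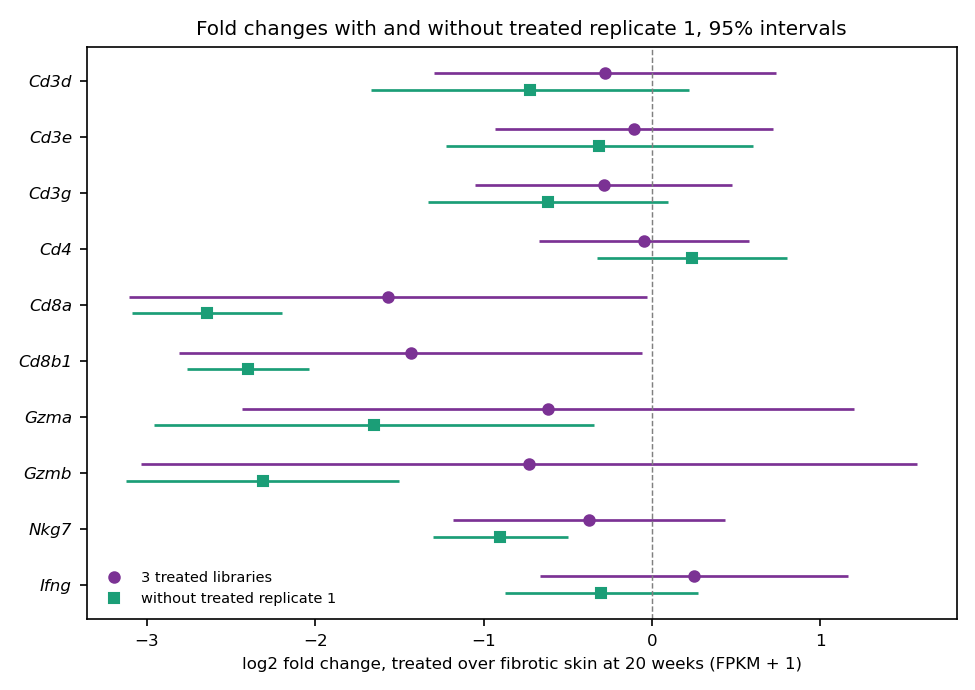
Log2 fold changes of the 10 genes in treated over fibrotic skin at 20 weeks with 3 treated libraries (circles) and without treated replicate 1 (squares), with 95% intervals. Cd8a moves to -2.64 without that library, against -1.57 with it, and its interval narrows.

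Few other genes of T cell receptor signalling were called at 20 weeks. In treated against fibrotic skin at 20 weeks, 1 of 20 tested genes was called higher, beside 4.45% of all tested genes. Against normal skin, 1 was called lower in treated skin, beside 13.2%, and 1 lower in 20-week fibrotic skin, beside 18.2%. At 6 weeks 4 were called higher and 3 lower against normal skin, beside 17.6% and 21.7% of all tested genes. In late against early fibrotic skin 0 were called in limma, with 1 higher and 1 lower at an unadjusted p under 0.05. Cd247, the zeta chain through which the CD3 complex signals, had means of 3.11 FPKM in treated skin, 1.92 FPKM in fibrotic skin at 20 weeks, 1.35 FPKM at 6 weeks and 5.58 FPKM in normal skin. It was lower than in normal skin at 6 weeks (log2 fold change -1.48 ± 0.19 SE, adjusted p = 0.00058, limma), at 20 weeks (-1.16 ± 0.19 SE, adjusted p = 0.00238, limma) and in treated skin (-0.66 ± 0.19 SE, adjusted p = 0.0382, limma), and the last of these calls was lost without treated replicate 1 (adjusted p = 0.0769, limma).

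Lck, the kinase bound to the CD4 and CD8 tails, had 8.42, 2.86 and 2.05 FPKM in treated skin, 4.65, 4.33 and 4.69 FPKM in fibrotic skin at 20 weeks, 2.51, 6.35 and 2.53 FPKM at 6 weeks and 2.56, 2.33 and 2.80 FPKM in normal skin. It was not called in any comparison in limma, with an adjusted p of 0.223 for 20-week fibrotic against normal skin. At 6 weeks Trat1, a T cell receptor adaptor, was lower than in normal skin (log2 fold change -1.48 ± 0.35 SE, adjusted p = 0.00948, limma), and Il7r, the receptor for interleukin 7, was higher (1.12 ± 0.28 SE, adjusted p = 0.0117, limma). Tcf7, the transcription factor TCF1 of naive and memory T cells, was called higher in treated than in fibrotic skin at 20 weeks, with means of 8.61 FPKM in treated and 4.005 FPKM in fibrotic skin and an adjusted p of 0.0307 (limma). The constant-region genes of the T cell receptor chains are not analysed here.

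Of 10 tested genes for granule proteins and killer receptors, 1 was called in treated skin against normal skin, beside 20.7% of all tested genes. In 6-week skin against normal skin 2 were called, beside 39.3%. In the other comparisons 0 were called in limma, beside 0.0363% to 33.5% of all tested genes. At an unadjusted p under 0.05 these others gave 1 higher and 0 lower in treated against fibrotic skin at 20 weeks, 2 higher and 1 lower in late against early fibrotic skin, and 1 higher and 1 lower in 20-week fibrotic against normal skin. Prf1, the gene of the pore-former perforin, had 3.65, 1.16 and 1.52 FPKM in treated skin, 1.47, 1.25 and 1.03 FPKM in fibrotic skin at 20 weeks, 0.116, 2.07 and 0.344 FPKM at 6 weeks and 2.75, 1.17 and 2.69 FPKM in normal skin. Unlike Gzma and Gzmb it was not low in normal skin, and it was not called in any comparison (adjusted p of 0.388 for 20-week fibrotic against normal skin, limma). Gzmc, another granzyme, was higher at 6 weeks (20.0 against 3.67 FPKM in normal skin, adjusted p = 0.00663, limma) and in treated skin (13.2 against 3.67 FPKM in normal skin, adjusted p = 0.0381, limma). Without treated replicate 1 the call in treated skin was lost (adjusted p = 0.0751, limma).

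The natural killer receptor gene Ncr1 was under 1 FPKM in every library, the level at which genes were tested in 3 libraries. Without treated replicate 1, 3 of these 10 granule and killer receptor genes were called lower in treated than in fibrotic skin at 20 weeks, beside 20.3% of all tested genes. Among them was Klrc1, a killer receptor subunit of natural killer and CD8 T cells, chosen after its values were seen. It stood at -1.42 ± 0.16 on the log2 scale (SE), with an adjusted p of 0.000408 in limma, as a description. With all 3 libraries it stood at -0.69 and was not called (adjusted p = 0.323, limma).

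Genes of helper and regulatory T cells were called in both directions against normal skin. Of 9 tested, 3 were called higher in treated than in late fibrotic skin, beside 4.45% of all tested genes. In late against early fibrotic skin 0 were called in limma, with 2 higher and 2 lower at an unadjusted p under 0.05. Relative to normal skin, treated skin had 1 higher and 2 lower, beside 7.57% and 13.2% of all tested genes. Late fibrotic skin had 1 higher and 5 lower, beside 15.3% and 18.2%. Early fibrotic skin had 3 higher and 5 lower, beside 17.6% and 21.7%. Icos, a co-stimulatory receptor of activated T cells, rose to 2.17 FPKM at 6 weeks, against 0.252 FPKM in normal skin (log2 fold change 1.34 ± 0.20 SE, adjusted p = 0.00108, limma). Foxp3, the regulatory T cell factor, was under 1 FPKM in every library and was not tested. Its values were 0.242, 0.432 and 0.0532 FPKM in treated skin, 0.0566, 0.126 and 0.262 FPKM in late fibrotic skin, 0.598, 0.865 and 0.653 FPKM at 6 weeks and 0.102, 0.162 and 0.0533 FPKM in normal skin.

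The 3 genes called higher in treated than in fibrotic skin at 20 weeks were Tnfrsf18, the gene of GITR (24.9 against 11.5 FPKM, adjusted p = 0.0185), Tnfrsf4, the gene of OX40 (7.01 against 3.93 FPKM, adjusted p = 0.0225), and Ctla4 (1.65 against 0.549 FPKM, adjusted p = 0.0484, all in limma). Without treated replicate 1, Tnfrsf18 and Tnfrsf4 were still called higher and Ctla4 was not. Tnfrsf18 had 32.8, 19.1 and 23.0 FPKM in treated skin and 12.2, 12.8 and 9.47 FPKM in fibrotic skin at 20 weeks, so the groups did not overlap. Of 6 tested checkpoint genes, 2 were called higher at 6 weeks than in normal skin, beside 17.6% of all tested genes. They were Tigit and Tnfrsf9 (adjusted p of 0.0141 and 0.0345, limma). The Tnfrsf9 call was lost under each library left out (adjusted p of 0.0574 to 0.0876, limma) and the Tigit call without normal replicate 1 (0.0572). In the other comparisons 0 were called in limma, beside 0.0363% to 33.5% of all tested genes. At an unadjusted p under 0.05, treated skin against normal skin had 2 higher and the others 0.

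Genes of the interferon gamma response were set beside Ifng. Their list holds the receptor, its signalling and induced genes, 24 of which were tested. In fibrotic skin at 20 weeks against normal skin 4 were called higher and 1 lower, beside 15.3% and 18.2% of all tested genes. Without overlap of these groups, 17 were higher and 2 lower, beside 25.1% and 29.5% of all tested genes. The induced chemokine genes Cxcl9, Cxcl10 and Cxcl11, whose products attract T cells through CXCR3, were higher there with log2 fold changes of 3.82 ± 1.02, 3.36 ± 1.08 and 3.21 ± 1.10 (SE) and adjusted p of 0.018, 0.0372 and 0.0468 (limma). Without late fibrotic replicate 1, their highest library in that group, all lost the call (adjusted p of 0.0688 for Cxcl9, 0.125 for Cxcl10 and 0.155 for Cxcl11), and Cxcl10 and Cxcl11 lost it in 5 of the 6 libraries left out in turn.

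Cxcl9 had 147, 7.05 and 5.00 FPKM in treated skin, 63.0, 25.2 and 14.5 FPKM in fibrotic skin at 20 weeks, 4.58, 4.96 and 10.4 FPKM at 6 weeks and 1.52, 0.722 and 1.15 FPKM in normal skin. Its treated libraries divided as those of Cd8a did, with replicate 1 above all others. Treated replicate 1 was the highest of the 12 libraries for 21 of the 24 genes. In treated against fibrotic skin at 20 weeks 0 of the 24 were called higher and 1, Jak1, lower. Of all tested genes 4.45% were called higher and 10.9% lower. Without treated replicate 1, 14 were called lower, beside 20.3% of all tested genes, among them Cxcl9 (log2 fold change -2.09 ± 0.52 SE, adjusted p = 0.012, limma). As that library was the highest for most of the 24, this count and adjusted p are descriptions.

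At 6 weeks 0 of the 24 were called higher and 1 lower against normal skin, beside 17.6% and 21.7% of all tested genes. The lower one was Ifngr1, a chain of the receptor (37.4 against 75.2 FPKM in normal skin, adjusted p = 0.00107, limma). In late against early fibrotic skin 0 were called in limma, with 2 higher and 0 lower at an unadjusted p under 0.05. Without overlap of these groups, 14 of the 24 were higher and 1 lower, beside 17.9% and 13% of all tested genes. In treated against normal skin 1 was called higher and 1 lower, beside 7.57% and 13.2% of all tested genes. Psmb10, an immunoproteasome subunit, was higher (34.2 against 8.95 FPKM in normal skin, adjusted p = 0.0149, limma). Ifngr1 was lower (45.7 against 75.2 FPKM in normal skin, adjusted p = 0.0122, limma). Ciita, the activator of MHC class II genes, was not called in any comparison (adjusted p = 0.937 for 20-week fibrotic against normal skin, limma). Among 8 tested genes for inducers of interferon gamma and their receptors, Il18 was higher than in normal skin at 20 weeks (222 against 90.2 FPKM, adjusted p = 0.0211, limma) and lower in treated than in fibrotic skin (71.9 against 222 FPKM, adjusted p = 0.0197, limma), and Il12rb2, a receptor chain for interleukin 12, was lower in fibrotic skin at 20 weeks (3.004 against 23.9 FPKM in normal skin, adjusted p = 0.0159, limma). The Il18 call against normal skin was lost in 4 of 6 libraries left out (adjusted p up to 0.0774) and that of Il12rb2 in 2 of 6 (up to 0.0613).

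**Figure D5:**
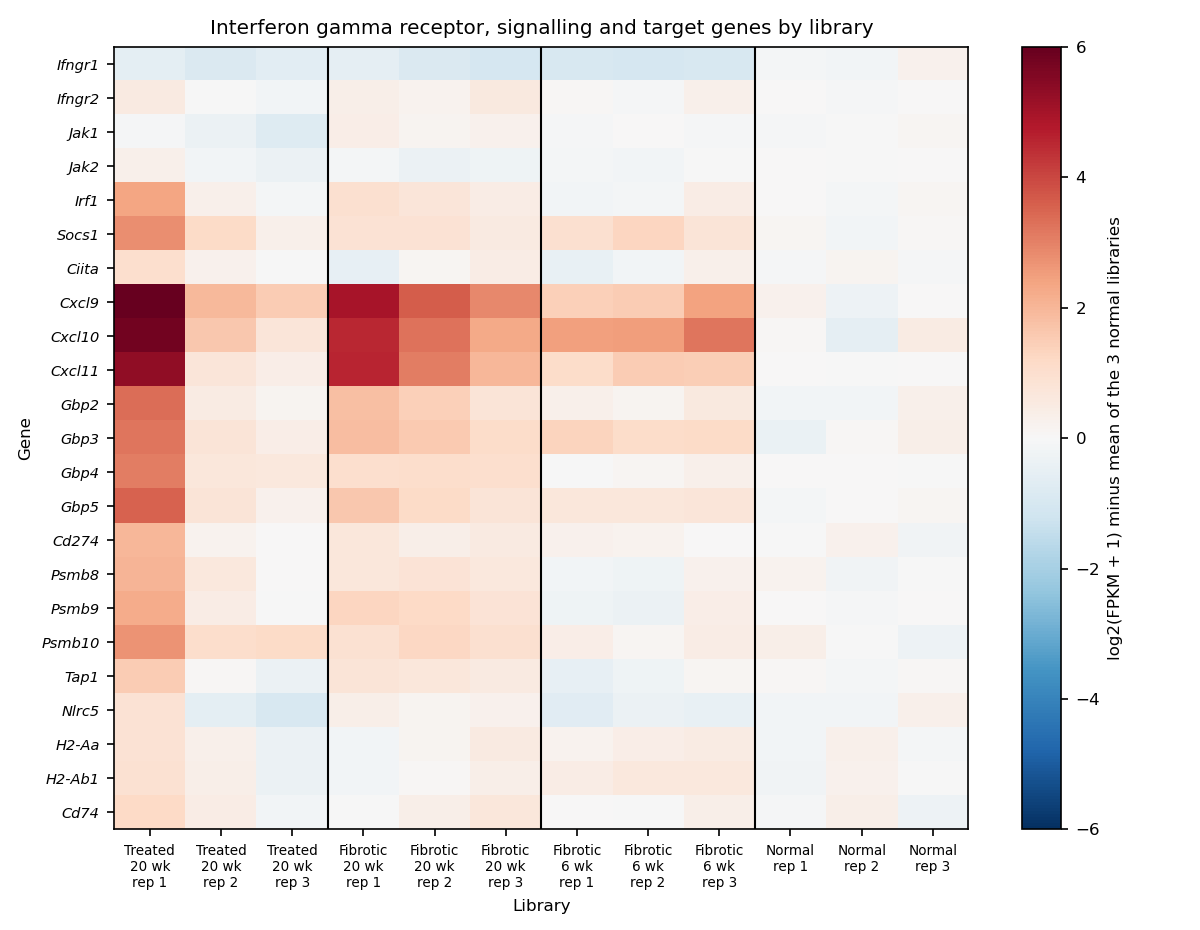
Log2(FPKM + 1) of genes of the interferon gamma response in each library, minus the mean of the 3 normal libraries, with treated, 20-week fibrotic, 6-week fibrotic and normal libraries from left to right. Treated replicate 1 is the highest library for 21 of the 24 tested genes of the list, not all of which are drawn, and Cxcl9, Cxcl10 and Cxcl11 are also high in fibrotic skin at 20 weeks.

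Of 15 tested homing and tissue residency genes, 4 were called higher and 2 lower in fibrotic skin at 20 weeks against normal skin. Of all tested genes 15.3% were called higher and 18.2% lower there. Ccl5, a T cell chemokine made by cytotoxic cells among others, had 52.1, 5.62 and 6.26 FPKM in treated skin, 39.1, 18.2 and 19.9 FPKM in fibrotic skin at 20 weeks, 3.78, 4.20 and 4.53 FPKM at 6 weeks and 1.73, 2.01 and 0.853 FPKM in normal skin. Late fibrotic skin exceeded normal skin (adjusted p = 0.00506, limma), as did treated skin (adjusted p = 0.0286, limma). In treated replicates 2 and 3 it lay between the ranges of early and late fibrotic skin. In treated against fibrotic skin at 20 weeks 2 of the 15 were called higher, beside 4.45% of all tested genes. They were Ccl19 and Ccl27a (adjusted p of 0.0256 and 0.0229, limma). Without treated replicate 1 there were 2 higher and 8 lower, beside 17.8% and 20.3% of all tested genes. The lower ones included Cxcr6, chosen after its values were seen (-1.91 ± 0.19 SE, adjusted p = 0.000309, limma, as a description).

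Genes most like each member over the 12 libraries were named by Pearson r of log2(FPKM + 1), as a description of libraries that share groups. Cd8a and Cd8b1 were both closest to Ubd, an interferon-inducible ubiquitin-like gene, with r of 0.948 and 0.945, followed by Tmem54 (0.944 for both). Ccl5 was among the 3 closest to Cd8a (0.944) and Cxcr6 among those closest to Cd8b1 (0.939). Gzma was also closest to Ubd (0.956). Gzmb was closest to Gm15056 (0.987), followed by Stat2 (0.981). Ifng was closest to Krt42, a keratin gene (0.961), followed by Gbp4 (0.928). For Cd3d, Klrd1, a killer receptor subunit, was among the 3 closest (0.852). Nkg7 was closest to Fam115c (0.956) and Amd1 (0.95), followed by Skap1, a T cell adaptor (0.941), which was also among the 3 closest to Cd3g (0.917). Cd3e and Cd3g were closest to Wrn (0.899 and 0.953), a DNA helicase gene, and Cd4 to Tnfrsf26 (0.935).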

How the data were processed

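Skin RNA of integrity number above 8.0, 250 ng for each library, was made into stranded poly-T selected libraries and sequenced in paired-end runs of 101 cycles on an Illumina HiSeq instrument, per the labels' protocols. The authors deposited FPKM values for 23359 genes in 12 libraries. The submitters' processing notes name mm10, Cufflinks 2.2.1, TopHat2 2.0.13, Bowtie2 2.2.3, SAMtools 1.0, cutadapt 1.7.1, FastQC 0.11.2 and R 3.1.1. The role of each, the annotation and the strand setting were not given in the sources used here, and the depth is unknown.

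For 13761 genes, those that 3 or more libraries held at 1 FPKM or above, log2(FPKM + 1) was fitted in limma 3.58.1 under R 4.3.3, with 12 libraries, 4 group means and an intensity trend. Tests were 2-sided, with Benjamini-Hochberg adjustment over all tested genes within each of 5 comparisons and calls at an adjusted p under 0.05. Exact permutation of 3 against 3 libraries allows no p below 0.1, so none is given. The fit was run on simulated data that gave each gene the same spread in all groups, unlike the libraries here. That run does not test the fit for the wider spread of treated skin. Fold changes on this scale understate the change of low genes.

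The 10 genes and all gene lists were chosen with earlier results of these data known. Beside the 10 genes, genes named were drawn from the up to 3 called genes of a list and comparison with the largest fold change among those whose groups did not overlap. Cd247, Lck, Prf1, Ptprc, Cxcl9, Ciita and Foxp3 are named by rule, and Ncr1, Klrc1, Cxcr6 and the genes under other observations were chosen after their values were seen. Up to 3 tested genes are named for the likeness of each gene with a mean of at least 0.5 FPKM. Alternatives were another pseudocount, filter, scaling or fit, array weights, a replicate block, a 2-fold threshold and each library left out. Which libraries were pooled for sequencing is not given in the labels, so no batch was tested. Results of some genes are not reported here, although the counts include them.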

Additional observations from a re-analysis of the deposited data

How the results depend on the processing

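Replicate numbers did not pair the libraries: same-numbered libraries of different groups correlated from -0.35 to 0.291 in their deviations, 5 of 18 pairs were over 0.1, and 2 of 12 libraries correlated best with their own number. With the replicate number as a block, 1365 genes were called in treated against fibrotic skin at 20 weeks (otherwise 2108). In 20-week fibrotic against normal skin it called 4 of the 10 genes (otherwise 3), beside 30.7% of all tested genes (otherwise 33.5%). The other counts of the 10 were as before. The cause of the changes below was not tested, except that fewer libraries enter where libraries were left out or 6 were fitted.

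In treated against fibrotic skin at 20 weeks, calls over all genes were 3 in the fit of 6 libraries, 1204 with array weights and 541 with a 2-fold threshold. In treated against normal skin (otherwise 2855) they were 138, 1311 and 509. Of the 10 genes there, 0 were called without a filter and 0 in the fit of 6 libraries, beside 13% and 1% of all genes. With the rescaling that left out muscle, hair shaft, cornified and short RNA genes and those listed at 0, 2 were called, beside 20.4%. In late against early fibrotic skin, calls were 2 after this rescaling, 478 in the fit of 6 libraries and 859 with array weights. The last pair of fits called 5 and 7 of the 10, beside 3.47% and 6.24% of all genes. In 20-week fibrotic against normal skin, 6 of the 10 were called with a pseudocount of 0.1, after rescaling and with array weights, and 9 in the fit of 6 libraries, and a 2-fold threshold left 1311 calls over all genes. In 6-week fibrotic against normal skin that threshold left 1578.

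The rescaling moved the median of all genes to 0.24 in treated against fibrotic skin at 20 weeks, to -0.32 in 20-week fibrotic against normal skin and to -0.36 in 6-week fibrotic against normal skin. Higher genes made up 75.9%, 16.7% and 17.4% of calls, against 29.0%, 45.6% and 44.9% before. Scaling by the median of ratios gave 48.5% in treated against normal skin, against 36.5% before. After rescaling, values in treated against fibrotic skin at 20 weeks turned to 0.13 for Cd3e, 0.14 for Cd4, 0.01 for Lck and 0.12 for Ptprc, and Ciita to -0.23 in 20-week fibrotic against normal skin. Ptprc turned to 0.032 there with the median of ratios, and Gzma to 0.105 in 6-week fibrotic against normal skin with a pseudocount of 0.1.

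With each library left out, calls over all genes ran from 3 (without fibrotic replicate 3) to 5226 (without treated replicate 1) in treated against fibrotic skin at 20 weeks, from 851 to 3101 in treated against normal skin, from 4 to 95 in late against early fibrotic skin, from 3026 to 3482 in 20-week fibrotic against normal skin and from 3490 to 4567 in 6-week fibrotic against normal skin. Of the 10 genes, 0 to 5, 0 to 3, 0 to 0, 2 to 3 and 4 to 4 were called. Log2 fold changes in treated against fibrotic skin at 20 weeks ran from -0.312 to 0.023 for Cd3e, -0.21 to 0.24 for Cd4, -1.65 to 0.13 for Gzma, -2.31 to 0.07 for Gzmb, -0.30 to 0.78 for Ifng, -0.69 to 0.12 for Lck, -0.388 to 0.045 for Ptprc and -2.09 to 0.22 for Cxcl9. In treated against normal skin they ran from -0.38 to 0.52 for Nkg7, -0.051 to 0.762 for Lck, -0.41 to 0.14 for Prf1 and -0.389 to 0.044 for Ptprc. They ran from -0.075 to 0.387 for Ciita in late against early fibrotic skin. In 20-week fibrotic against normal skin they ran from -0.20 to 0.09 for Cd3d, -0.14 to 0.072 for Ptprc and -0.17 to 0.29 for Ciita. In 6-week fibrotic against normal skin they ran from -0.14 to 0.16 for Gzma, -0.015 to 0.518 for Lck and -0.303 to 0.082 for Ciita.

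Over 143 results for single genes, 1998 values were computed under alternatives. Of these, 1703 kept their direction and side of the threshold, 205 lost a call, 51 gained one and 39 changed sign, and 0 of those that changed sign had been called.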

Other observations

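Some T cell cytokines stood out in single treated libraries, and these genes were chosen after their values were seen. Il17a, the cytokine of type 17 T cells, had 0.0319, 0 and 2.76 FPKM in treated skin and at most 0.0788 FPKM in every other library. Il17f had 0.0290, 0.0205 and 2.21 FPKM in treated skin. Il13, a type 2 cytokine, had 2.79, 0.138 and 0.0586 FPKM in treated skin, 0.576, 0.342 and 0.376 FPKM in fibrotic skin at 20 weeks, 0, 0.0536 and 0.179 FPKM at 6 weeks and 0.239, 0.122 and 0.0486 FPKM in normal skin. None of these genes reached 1 FPKM in 3 libraries, and none was tested.

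Fibrotic replicate 2 of 6 weeks was the highest of the 12 libraries for 8 of 20 tested genes of T cell receptor signalling. Cd28, a co-stimulatory receptor, had 0.440, 2.96 and 0.424 FPKM at 6 weeks and 0.222, 0.248 and 0.294 FPKM in normal skin.

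In the mast cell list, 4 of 5 tested genes were called higher in treated than in fibrotic skin at 20 weeks without treated replicate 1, beside 17.8% of all tested genes, and 0 with it, where 3 were higher at an unadjusted p under 0.05 (limma). Cpa3, a mast cell carboxypeptidase, had 4.62, 20.2 and 17.7 FPKM in treated skin and 4.41, 11.9 and 3.74 FPKM in fibrotic skin at 20 weeks.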
